A study of Mus musculus with 12 samples.

Results

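In 4 of 12 embryo RNA-seq libraries, the RNA of Tbx4 was close to absent. Tbx4 is a T-box transcription factor of the hindlimb field and the allantois. The libraries were selected on that value alone: KO2, KO3, KO6 and WT5 held 14, 4, 2 and 9 raw counts assigned to Tbx4, under a limit of 50. The other 8 libraries, KO1, KO4, KO5, WT1, WT2, WT3, WT4 and WT6, held 134 to 265 counts, above a limit of 100. The libraries nearest to the limits were KO2 with 14 counts and KO5 with 134 counts. The first set is called Tbx4-low here and the second Tbx4-high.

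The study compared mouse embryos with a whole-body deletion of Traf7 (KO, labelled TRAF7-*/-*, n = 6) with wild-type embryos (WT, n = 6), all at embryonic day 9.5 and on the C57BL6/J strain. The Traf7 allele came from a floxed line crossed with E2a-Cre mice, and its asterisk marks a linked intronic deletion in 2310061I04Rik, so the KO label stands for both lesions. The RNA of 2310061I04Rik was 1.13 to 2.03 CPM in 5 KO libraries and 6.38 CPM in KO6, against 7.19 to 15.8 CPM in WT libraries, so KO6 stood apart from the other KO libraries at that gene. Cre driven by E2a acts from the earliest embryo on, so the deletion was not limited to any cell type. Each library was made from an individual embryo, whose litter and somite stage were not given in the sources used here. Nor was it given whether the whole embryo entered each library. Embryo RNA is a mixture of tissues, so fewer cells of a type and less RNA per cell cannot be told apart in any result that follows.

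The libraries held 16675204 to 21917571 counts over 54532 genes, and the Tbx4-low libraries lay within that range, at 17114018 to 21586416. Levels are given as CPM, the counts of a gene in a library of 1000000 counts, after scaling by the trimmed mean of M values (TMM). In one library, 3 counts corresponded to 0.136 to 0.179 CPM, which is taken as the floor. Traf7, which encodes a ubiquitin ligase of the TRAF family, was measured first as a check of the labels. It stood at 17.3, 17.1 and 17.5 CPM in the Tbx4-low KO libraries and at 114 CPM in WT5. In the Tbx4-high libraries it stood at 19.3, 18.9 and 13.1 CPM in KO and at 115 to 144 CPM in WT. Every library thus held the Traf7 level of its label, WT5 included.

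In the mouse embryo the trunk and tail are laid down from head to tail by progenitors at the posterior end, later the tail bud. These cells express T (Brachyury) and the caudal-type factors Cdx1, Cdx2 and Cdx4, and their descendants pass through Tbx6 and Msgn1 as they become presomitic mesoderm. The Hox genes lie in 4 clusters and are switched on in the order in which they stand on the chromosome: low-numbered groups reach the hindbrain and neck, middle groups the trunk, and the highest-numbered groups the lumbar, sacral and tail levels. The hindlimb field expresses Pitx1 and Tbx4, whereas the forelimb field expresses Tbx5.

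Tbx4 lies on chromosome 11, 85886422 to 85916097 in the GRCm38 build. Its level averaged 0.368 ± 0.252 CPM in Tbx4-low libraries and 10.8 ± 3.02 CPM in Tbx4-high libraries (SD, n = 4 and 8). These values chose the libraries and carry no test. Tbx4 was left out of all counts of genes that compare the classes. The other defining markers of the rear of the body were Hoxc10, on chromosome 15, 102966796 to 102971893, and Hoxa11, on chromosome 6, 52242106 to 52245810, both of which are expressed at lumbar and sacral levels. Hoxc10 held no count in any of the 4 Tbx4-low libraries, against 14.1 to 32.1 CPM (median 29.03) in Tbx4-high libraries, and was at least 175-fold lower when the floor stands in for 0. Hoxa11 measured 0, 0, 0 and 1.57 CPM in KO2, KO3, KO6 and WT5, against 3.70 to 7.99 CPM (median 6.49) in Tbx4-high libraries. The rear-body markers were thus at or near 0 in KO2, KO3 and KO6, while WT5 kept a reduced Hoxa11 level.

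**Figure D1:**
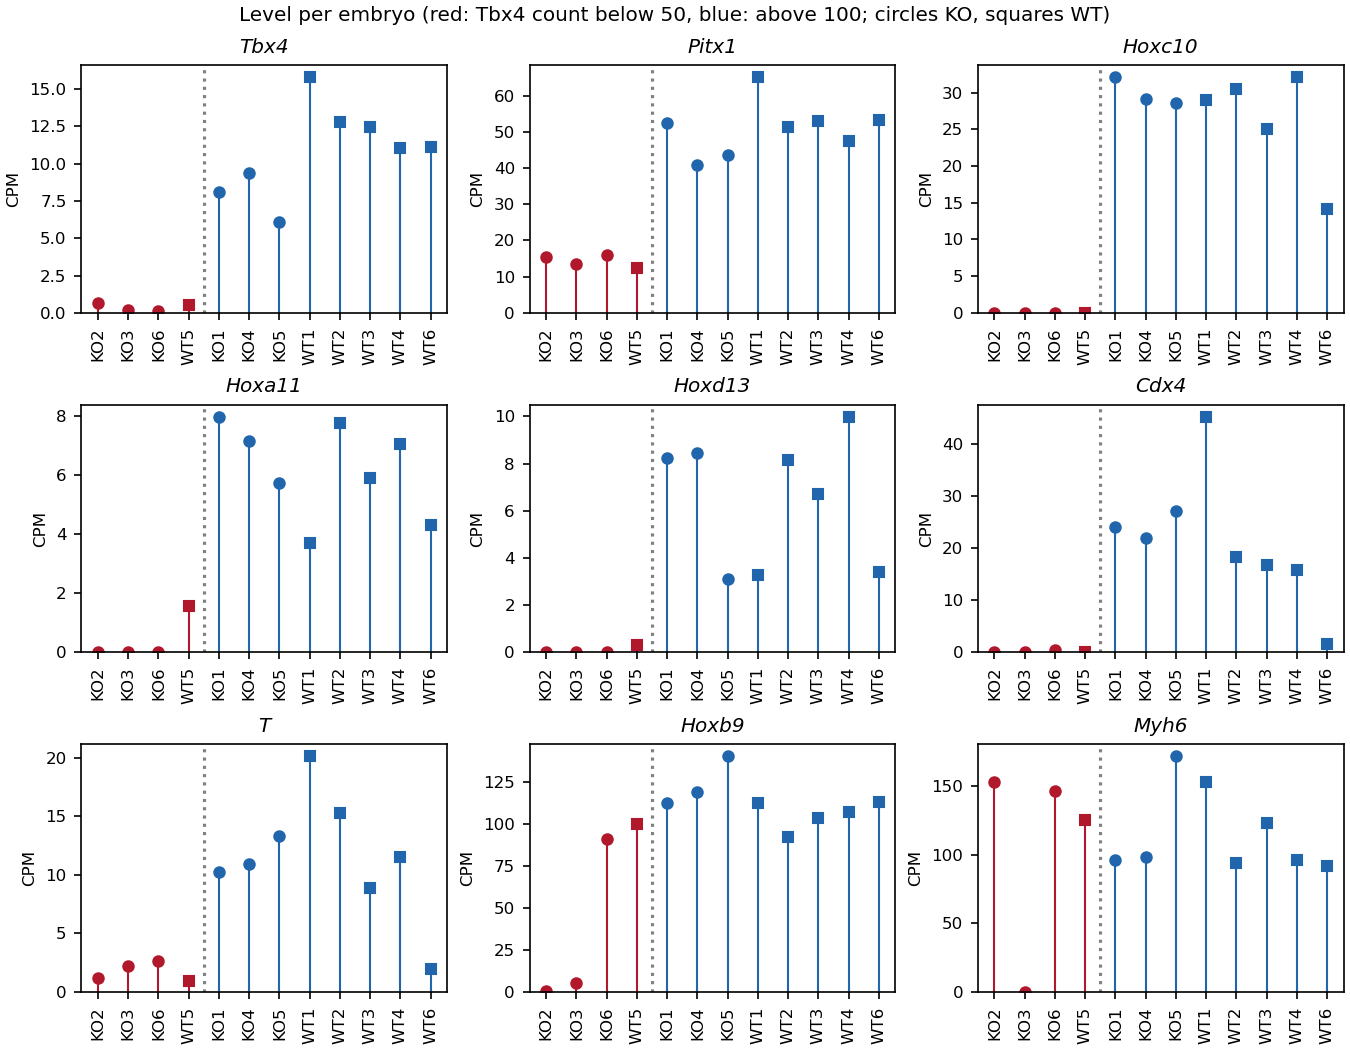
Levels of 9 genes in each of the 12 libraries, in CPM on linear axes that start at 0, with Tbx4-low libraries in red on the left and Tbx4-high libraries in blue on the right; circles are KO and squares are WT. Tbx4, Pitx1, Hoxc10, Hoxa11 and Hoxd13 separate the 4 red from the 8 blue points, Cdx4 and T place WT6 near the red points, Hoxb9 is low in KO2 and KO3, and Myh6 is at the floor in KO3 with 0.102 CPM.

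Of all 14803 tested genes, 28 were lower in Tbx4-low libraries at an adjusted p of at most 0.05 (0.189% of those tested) and 1 was higher (0.00676%). Genotype was a term in this fit, edgeR's quasi-likelihood fit. Of the 28 lower genes, 23 were lower by at least 2-fold. Because the classes were made from these libraries, these counts and the folds below describe the libraries and are no test. The number depended on single libraries and on the method. The 29 genes became 13 without KO1 or without KO2, 15 without KO3, 17 without WT2, 18 without KO4 and 19 without KO5. They became 34 without WT6 and 40 without KO6, and the remaining single omissions gave 20 to 24. With KO2 and KO3 both left out the number was 9, and with KO6 and WT5 both left out it was 125. By DESeq2 it was 112, and by limma voom with quality weights 128. By rank alone, 130 genes (0.878%) lay below all 8 Tbx4-high libraries in all 4 Tbx4-low libraries, and 45 lay above. Of all tested genes, 7194 (48.6%) had a lower fitted level and 7609 a higher one. The counts of lower and higher list members below are to be read beside that share.

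The 28 genes were 7 Hox-cluster genes (Hoxa10, Hoxa13, Hoxc10, Hoxc11, Hoxd11, Hoxd13 and the antisense RNA Hoxa11os), Evx1, Evx1os and Evx2 at the ends of the HoxA and HoxD clusters, Cdx4, Tbx6, Wnt5a, Bmp4, Pitx1, Sall1, Cer1, Unc5b, Gnal, Arl4d, Ifitm1, Pmaip1, Peli3, Stra6l, Naaa, Mgam, Gm53 and 2610528A11Rik. In 26 of them the Tbx4-low and Tbx4-high libraries did not overlap. The exceptions were Tbx6 and Wnt5a, in which WT6 lay among the Tbx4-low libraries. The single higher gene was Msx3, a homeobox gene of the dorsal neural tube. It measured 33.1, 33.4, 26.9 and 28.1 CPM in KO2, KO3, KO6 and WT5, against 16.5 to 22.9 CPM (median 19.7) in Tbx4-high libraries, a log2 difference of 0.66 (SE 0.103). Msx3 was named after its value was seen.

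Pitx1 is the homeodomain factor that acts upstream of Tbx4 in the hindlimb field, on chromosome 13, 55825051 to 55836192. It measured 15.4, 13.4, 15.8 and 12.3 CPM in KO2, KO3, KO6 and WT5, against 40.9 to 65.2 CPM (median 51.99) in Tbx4-high libraries, a log2 difference of -1.78 (SE 0.127). The 4 low values lay within a narrow band, and none was near the floor. Pitx1 is also expressed in the first branchial arch and the oral ectoderm, outside the hindlimb. Hand2, a bHLH factor of limb, heart and branchial arch, measured 23.6, 13.5, 26.9 and 32.9 CPM in KO2, KO3, KO6 and WT5, against 33.004 to 47.5 CPM (median 41.6) in Tbx4-high libraries, so that WT5 lay just under the lowest of them, and its log2 difference was -0.63 (SE 0.173). Isl1, which acts early in the hindlimb field, overlapped between the classes, at 17.2, 11.8, 9.35 and 12.98 CPM in KO2, KO3, KO6 and WT5, against 12.2 to 18.4 CPM (median 16.5) in Tbx4-high libraries. Of the 8 tested genes on a list of hindlimb and shared limb genes, 7 were lower and 1, Tbx2, was higher, with Pitx1 the one past the threshold. Their median log2 difference was -0.24, beside 0.0045 for all tested genes, of which 48.6% were lower and 0.189% lower past the threshold. Within the forelimb list of 6 genes, 4 were lower and 2 higher (median -0.10), beside 48.6% lower among all tested genes. Tbx5 measured 13.04, 4.93, 16.73 and 18.6 CPM in KO2, KO3, KO6 and WT5, against 12.6 to 16.6 CPM (median 15.6) in Tbx4-high libraries, with KO3 alone under that range.

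Groups 9 to 13 of the Hox clusters, the genes of the rear of the axis, were lower in most members and libraries, Hoxb9 in WT5 being an exception. Of their 16 genes, 12 passed the filter on low counts. All 12 of these were lower, 6 were past the threshold, and 11 did not overlap between the classes. Over all tested genes, 48.6% were lower, 0.189% were lower past the threshold, and 0.878% lay below without overlap. Their median log2 difference was -4.36, or -4.30 when genes with no count are placed at their bound. A gene that reached the filter through the Tbx4-high libraries alone had to be lower, so these counts describe the 12 and not the whole set. The 4 others, Hoxc12, Hoxd12, Hoxb13 and Hoxc13, had no count in any Tbx4-low library and at most 3.16 CPM (Hoxd12 in WT4) in a Tbx4-high library. Over all 16 genes, 13, 12, 9 and 7 were at 0 counts in KO2, KO3, KO6 and WT5, against 0 to 3 in Tbx4-high libraries.

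Hoxc11, a neighbour of Hoxc10 in the HoxC cluster, had no count in any Tbx4-low library, against 0.837 to 7.07 CPM (median 3.57) in Tbx4-high libraries, and was at least 23.8-fold lower. Hoxd11, a group 11 gene of sacral vertebrae, limb and kidney, had no count in KO2, KO3 or KO6 and 0.116 CPM in WT5, against 3.17 to 17.2 CPM (median 13.1) in Tbx4-high libraries. The ratio of Tbx4-high to Tbx4-low levels for Hoxd11 was 453 (95% interval 125 to 3737), where the interval covers counting error only. Both genes are expressed behind the trunk, and both were lowest among Tbx4-high libraries in WT6, at 0.837 and 3.17 CPM.

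Hoxa13 and Hoxd13 mark the very end of the axis, the hindgut and genital region and the distal limb. Hoxa13 measured 0, 0.0508, 0.0550 and 0 CPM in KO2, KO3, KO6 and WT5, against 1.67 to 3.60 CPM (median 2.43) in Tbx4-high libraries, a ratio of Tbx4-high to Tbx4-low levels of 93.96 (95% interval 26.01 to 776). Hoxd13 had no count in the 3 KO libraries and 0.291 CPM in WT5, against 3.12 to 9.996 CPM (median 7.43) in Tbx4-high libraries, a log2 difference of -6.43 (SE 0.765). For group 10, expressed from the lumbar level backwards, Hoxa10 measured 0.0454, 0, 0.385 and 1.80 CPM in KO2, KO3, KO6 and WT5, against 8.49 to 17.2 CPM (median 14.7) in Tbx4-high libraries, a log2 difference of -4.69 (SE 0.638). In Hoxa10 and in Hoxd10 the order was the same: KO2 and KO3 at the floor, KO6 above them, WT5 highest of the Tbx4-low libraries. Hoxd10 measured 0, 0, 0.385 and 2.68 CPM in KO2, KO3, KO6 and WT5, against 4.66 to 9.02 CPM (median 6.90) in Tbx4-high libraries.

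The Tbx4-low libraries differed from each other in how far forward along the Hox series the low levels reached. Hoxa9, of the thoracic to lumbar transition, measured 0.0454, 0.102, 4.13 and 7.80 CPM in KO2, KO3, KO6 and WT5, against 13.6 to 23.1 CPM (median 15.1) in Tbx4-high libraries. Hoxd9 measured 0, 0.102, 5.94 and 14.1 CPM in KO2, KO3, KO6 and WT5, against 15.6 to 21.6 CPM (median 17.9) in Tbx4-high libraries, so that WT5 was close to the Tbx4-high range while KO2 and KO3 were at or below the floor. Hoxb9, the group 9 gene of the HoxB cluster, measured 0.318, 5.18, 90.8 and 99.95 CPM in KO2, KO3, KO6 and WT5, against 92.1 to 140.2 CPM (median 112) in Tbx4-high libraries. KO6 lay just under that range and WT5 within it, and KO2 and KO3 lay far below.

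Among groups 5 to 8, the genes of the neck and thorax, 11 of 11 tested genes had a lower fitted level in Tbx4-low libraries (median -1.04), and none was past the threshold in edgeR's fit. The difference was largest in KO2 and KO3: both lay below the other 10 libraries in 11 of 11 genes, a pattern that 571 of all tested genes (3.86%) showed. In 2 of the 11, Hoxc6 and Hoxd8, all 4 Tbx4-low libraries lay below all Tbx4-high libraries, beside 0.878% of all tested genes. Relative to the Tbx4-high mean, Hoxd8 had log2 ratios of -1.13 in KO6 and -0.61 in WT5, against -0.28 to 0.33 in Tbx4-high libraries. Hoxc6, expressed at the forelimb and upper thorax, measured 0.136, 0.711, 9.68 and 15.5 CPM in KO2, KO3, KO6 and WT5, against 15.9 to 27.3 CPM (median 20.3) in Tbx4-high libraries. Hoxc8, of the thorax, measured 0.227, 0, 10.4 and 15.2 CPM in KO2, KO3, KO6 and WT5, against 13.7 to 20.3 CPM (median 16.5) in Tbx4-high libraries, with WT5 within that range. Hoxa7 measured 0, 0.508, 13.9 and 16.1 CPM in KO2, KO3, KO6 and WT5, against 13.3 to 21.5 CPM (median 20.1) in Tbx4-high libraries, with both KO6 and WT5 within it. At the front of the set, Hoxb5 measured 8.09, 8.18, 11.8 and 16.2 CPM in KO2, KO3, KO6 and WT5, against 10.4 to 15.8 CPM (median 12.6) in Tbx4-high libraries. The 12 genes of groups 1 to 4 were 7 lower and 5 higher (median -0.18), a split near that of all tested genes (48.6% lower). Hoxb4, whose border lies in the hindbrain, measured 17.8, 22.4, 24.3 and 25.4 CPM in KO2, KO3, KO6 and WT5, against 19.8 to 26.2 CPM (median 21.7) in Tbx4-high libraries, with KO2 alone under that range. Over groups 9 to 13 the summed level was 0.409, 5.43, 104.5 and 134.0 CPM in KO2, KO3, KO6 and WT5, against 202.1 to 271.2 CPM in Tbx4-high libraries. Over groups 5 to 8 it was 29.3, 40.5, 129.3 and 171.7 CPM in the same Tbx4-low libraries, against 171.6 to 189.7 CPM in Tbx4-high libraries. Most of the groups 9 to 13 sum in KO6 and WT5 was Hoxb9, whose levels are given above. The median log2 ratios of that list to Tbx4-high libraries were -4.0 in KO6 and -2.32 in WT5.

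**Figure D2:**
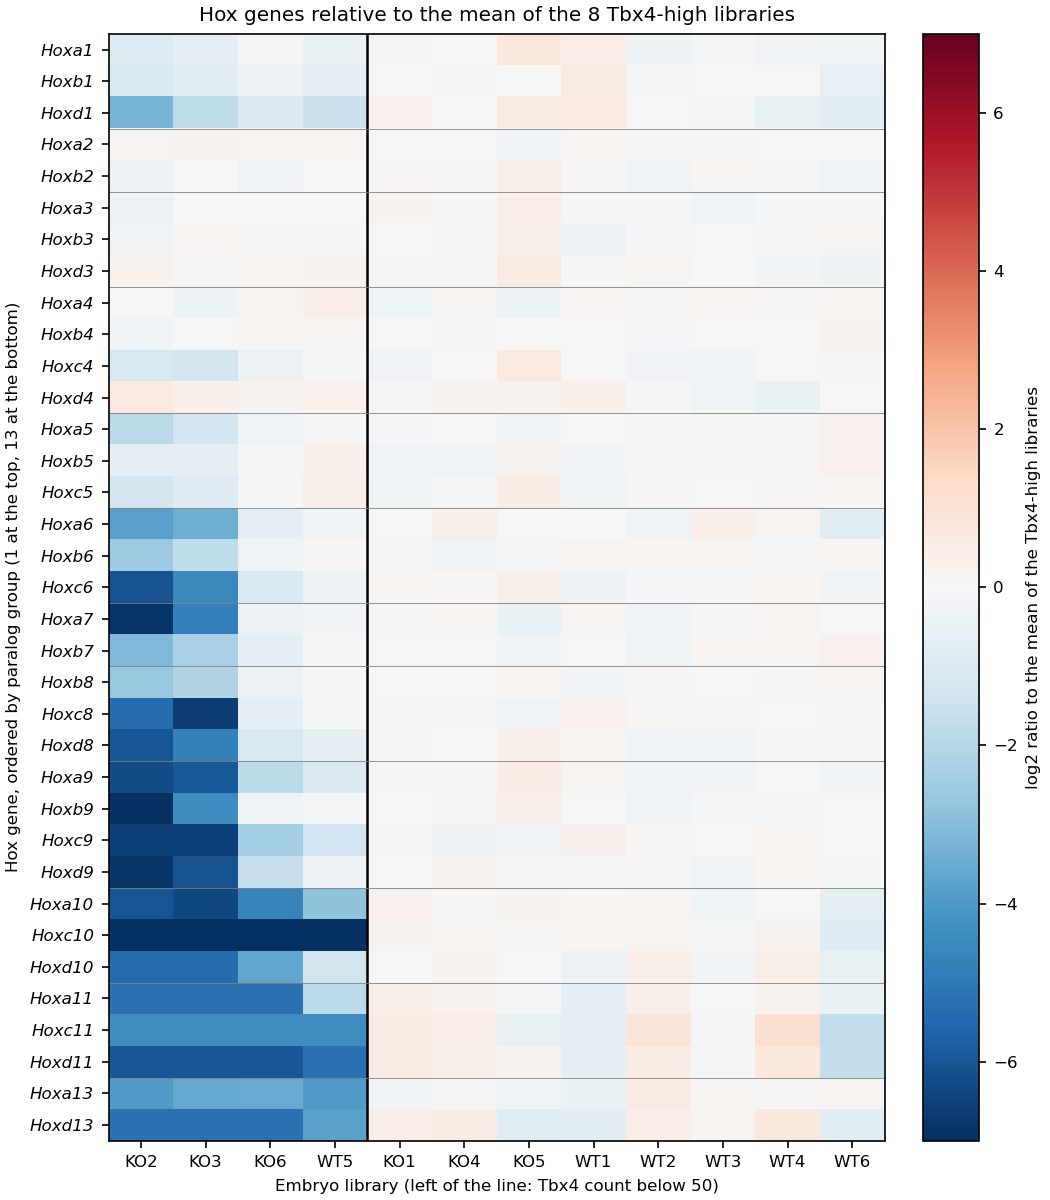
Each row is one of the 35 tested Hox genes, ordered by paralog group, and each column is a library, Tbx4-low on the left; colour is the log2 ratio of the library to the mean of the 8 Tbx4-high libraries, after a CPM offset of 0.164, and saturates at 7. Low levels cover most of groups 5 to 13 in KO2 and KO3, where the group 9 to 13 medians were -6.03 and -5.66, and mainly groups 9 to 13 in KO6 and WT5, with medians of -4.0 and -2.32.

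The noncoding RNAs of the clusters were 7 lower and 1 higher of 8 tested (median -0.72), with Hoxa11os past the threshold. Among all tested genes 48.6% were lower, and 0.189% were lower past the threshold. Hoxa11os is transcribed antisense to Hoxa11, and because strand handling in the counting was not given in the sources used here, the reads of Hoxa11 and Hoxa11os could not be told apart with certainty. The same holds for Evx1 and Evx1os. Hoxaas3, in the HoxA cluster, measured 0.772, 1.27, 2.26 and 2.10 CPM in KO2, KO3, KO6 and WT5, against 2.33 to 17.3 CPM (median 8.17) in Tbx4-high libraries, WT6 being the lowest of these at 2.33 CPM. Hoxb5os measured 0.182, 1.47, 10.01 and 9.78 CPM in KO2, KO3, KO6 and WT5, against 12.3 to 29.5 CPM (median 19.7) in Tbx4-high libraries.

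The caudal-type genes regulate posterior Hox genes and keep axis elongation going. Cdx4, on chromosome X, 103321398 to 103330592, measured 0, 0, 0.495 and 0.0582 CPM in KO2, KO3, KO6 and WT5, against 1.61 to 45.3 CPM (median 20.2) in Tbx4-high libraries, a log2 difference of -7.42 (SE 1.13). WT6, at 1.61 CPM, was the lowest of the Tbx4-high libraries, and the next was WT4 at 15.8 CPM. Cdx2, which is also expressed in the hindgut, measured 0.0454, 0, 3.36 and 2.21 CPM in KO2, KO3, KO6 and WT5, against 5.62 to 42.2 CPM (median 25.2) in Tbx4-high libraries, with WT6 again lowest at 5.62 CPM. Its log2 difference was -4.33 (SE 0.886) and was not past the threshold. Cdx1, whose expression reaches further forward, measured 1.91, 4.01, 9.08 and 8.62 CPM in KO2, KO3, KO6 and WT5, against 6.26 to 13.4 CPM (median 8.95) in Tbx4-high libraries, so KO6 and WT5 lay within the Tbx4-high range. Of the 6 genes on the ParaHox and Cdx list, only these 3 Cdx genes passed the filter on low counts, and Pdx1, Gsx1 and Gsx2 were not tested. All 3 were lower (median -4.33), 1 of them past the threshold, beside 48.6% and 0.189% of all tested genes.

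Genes of the tail bud list fell into those that were low in the 4 Tbx4-low libraries, among them T, Tbx6, Msgn1, Evx1 and Nkx1-2, and those that were not separated, among them Wnt3a, Fgf8, Sp5, Gdf11 and Hes3. T, the T-box factor of posterior mesoderm and notochord, measured 1.18, 2.18, 2.64 and 0.931 CPM in KO2, KO3, KO6 and WT5, against 1.97 to 20.2 CPM (median 11.3) in Tbx4-high libraries, where WT6 at 1.97 CPM lay within the Tbx4-low range. Its log2 difference was -2.82 (SE 0.556), not past the threshold. Tbx6, which directs progenitors to presomitic mesoderm, measured 0.409, 0.863, 0.330 and 0.466 CPM in KO2, KO3, KO6 and WT5, against 0.658 to 11.9 CPM (median 6.39) in Tbx4-high libraries, a log2 difference of -3.82 (SE 0.638), and WT6 at 0.658 CPM lay within the Tbx4-low range. Msgn1, a bHLH factor of the presomitic mesoderm, had no count in the 4 Tbx4-low libraries or in WT6, against 4.07 to 8.22 CPM in the 7 other Tbx4-high libraries. It was at least 32.3-fold lower over the classes, and was not past the threshold.

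Evx1, a homeobox gene of the posterior streak and tail bud beside the HoxA cluster, measured 0.363, 0.356, 0.605 and 0.699 CPM in KO2, KO3, KO6 and WT5, against 2.93 to 19.5 CPM (median 10.4) in Tbx4-high libraries, a log2 difference of -4.45 (SE 0.502). Nkx1-2, a homeobox gene of the neuromesodermal progenitors, measured 0.9996, 1.68, 3.52 and 2.79 CPM in KO2, KO3, KO6 and WT5, against 3.95 to 19.9 CPM (median 11.5) in Tbx4-high libraries. Both kept the classes apart, although WT6 had the lowest Tbx4-high value in each, at 2.93 and 3.95 CPM. Wnt5a, a Wnt ligand of outgrowing tissue, measured 73.9, 65.6, 61.02 and 59.96 CPM in KO2, KO3, KO6 and WT5, against 67.7 to 102 CPM (median 96.1) in Tbx4-high libraries, and its log2 difference was -0.57 (SE 0.0997). The Wnt ligand Wnt3a measured 14.5, 15.2, 12.5 and 11.6 CPM in KO2, KO3, KO6 and WT5, against 10.3 to 16.6 CPM (median 13.5) in Tbx4-high libraries. The growth factor Fgf8 measured 15.2, 16.1, 9.46 and 12.8 CPM in KO2, KO3, KO6 and WT5, against 10.5 to 20.3 CPM (median 14.6) in Tbx4-high libraries. Wnt3a is also expressed in the dorsal neural tube, and Fgf8 at the midbrain border and in the branchial arches. Sp5, Gdf11 and Hes3 overlapped likewise, with fitted log2 differences of 0.02, -0.07 and -0.07. Over the tail bud list of 15 genes, 14 were lower and 1 higher (median -0.57), and Evx1, Wnt5a and Tbx6 were past the threshold. Among all tested genes 48.6% were lower, and 0.189% were lower past the threshold.

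The bases before the transcription start are shown for 3 of the genes past the threshold, Hoxd11, Tbx6 and Cdx4, to put the sequence beside the values. Capitals mark ATAAA, the reverse complement of TTTAT and the core of the sites bound by caudal-type and posterior Hox proteins; both strands were searched. The TATA box TATAAA holds the same letters, and the capitals in Tbx6 overlap one. Sequences are from RefSeq, GRCm38.p6, 100 bases before the start, on the plus strand at chr2:74679458-74679557, chr7:126781383-126781482 and chrX:103321298-103321397.
Hoxd11: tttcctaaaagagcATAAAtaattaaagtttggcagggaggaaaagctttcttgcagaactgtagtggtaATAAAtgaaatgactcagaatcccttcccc
Tbx6: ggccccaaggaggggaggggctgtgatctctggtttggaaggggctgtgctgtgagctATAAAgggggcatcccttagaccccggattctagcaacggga
Cdx4: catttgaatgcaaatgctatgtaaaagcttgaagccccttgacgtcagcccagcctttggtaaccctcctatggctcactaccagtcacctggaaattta
The 5 letters occurred 2 times in the window of Hoxd11, 1 time in that of Tbx6 and 0 times in that of Cdx4. Of 35 genes looked up, 22 had a window, and 5 of these held the letters (Hoxd11, Sp5, Tbx6, Msgn1 and Tbx4). Among all genes with one, 5748 of 32851 windows, 17.5%, held them. A match is a description of letters and not of binding.

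The segmentation clock times the formation of somites from the presomitic mesoderm. Hes7, its oscillating repressor, measured 0.318, 0.305, 0.330 and 0.0582 CPM in KO2, KO3, KO6 and WT5, against 0.897 to 4.95 CPM (median 2.81) in Tbx4-high libraries, with a log2 difference of -3.37 (SE 0.656) that was not past the threshold. Of 13 tested clock and presomitic genes, 10 were lower and 3 higher (median -0.23). Dll3, a Notch pathway gene that is also expressed in neurons, measured 23.9, 18.5, 9.02 and 20.5 CPM in KO2, KO3, KO6 and WT5, against 18.5 to 30.2 CPM (median 27.8) in Tbx4-high libraries. Of 16 somite derivative genes 10 were lower and 6 higher (median -0.08), beside 48.6% lower among all tested genes. KO2 and KO3 lay below the 10 other libraries in 5 of the 16 and in 1 of the 13 clock genes, against 3.86% of all tested genes. The list medians in KO2 and KO3 were -0.41 and -0.33 for somite derivatives and -0.11 and -0.07 for the clock list, relative to Tbx4-high libraries. Meox1, a homeobox gene of the somite, measured 33.8, 59.8, 101 and 84.1 CPM in KO2, KO3, KO6 and WT5, against 70.2 to 101 CPM (median 91.2) in Tbx4-high libraries. Tcf15, which is needed for epithelial somites, measured 7.81, 11.8, 21.2 and 16.9 CPM in KO2, KO3, KO6 and WT5, against 18.5 to 29.2 CPM (median 25.5) in Tbx4-high libraries. In both genes KO2 and KO3 were low and KO6 was within the range of Tbx4-high libraries, and WT5 lay under that range in Tcf15.

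In the mesoderm beside the somites KO2 and KO3 were low in part of the genes. WT5 also lay under the Tbx4-high range in Ret, Lhx1 and Hand1. In the intermediate mesoderm and mesonephros 7 of 12 genes were lower (median -0.35), a count near the share of all tested genes (48.6%). KO2 and KO3 lay below the other 10 libraries in 6 of these 12, against 571 of all tested genes (3.86%). Ret, the receptor of the nephric duct and of enteric neurons, measured 6.77, 10.01, 20.5 and 12.6 CPM in KO2, KO3, KO6 and WT5, against 17.5 to 41.99 CPM (median 21.2) in Tbx4-high libraries. Lhx1, a LIM homeobox gene of the nephric duct, measured 1.14, 0.813, 3.41 and 2.21 CPM in KO2, KO3, KO6 and WT5, against 3.18 to 6.80 CPM (median 3.70) in Tbx4-high libraries. In the lateral plate and allantois list 7 of 9 genes were lower (median -0.46). Bmp4, a growth factor of posterior and ventral mesoderm, was past the threshold at 19.3, 18.03, 21.2 and 21.1 CPM in KO2, KO3, KO6 and WT5, against 23.7 to 38.7 CPM (median 28.5) in Tbx4-high libraries, a log2 difference of -0.61 (SE 0.108). Hand1, of lateral mesoderm and heart, measured 12.5, 4.01, 40.4 and 26.95 CPM in KO2, KO3, KO6 and WT5, against 28.6 to 56.9 CPM (median 41.2) in Tbx4-high libraries, and was lowest in KO3.

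Genes of the head and of the spinal cord had mostly higher fitted levels in Tbx4-low libraries, beside 7609 higher among all 14803 tested genes. Of 12 forebrain and eye genes 11 had a higher fitted level in Tbx4-low libraries (median 0.42), as had 7 of 8 midbrain and hindbrain genes (median 0.35), 10 of 13 spinal cord genes (median 0.21) and 10 of 13 genes of head mesenchyme and branchial arches (median 0.21), with none past the threshold. KO2 and KO3 both lay above the other 10 libraries in 9 of 12 forebrain genes, 8 of 13 head mesenchyme genes, 3 of 8 midbrain and hindbrain genes and 5 of 13 spinal cord genes, against 643 of all tested genes (4.34%). In 3 other spinal cord genes both lay below the 10 others, and that list's median was 0.23 in WT5, beside 0.41 in KO2 and 0.28 in KO3. Otx2, which patterns forebrain and midbrain, measured 47.2, 61.9, 30.04 and 33.8 CPM in KO2, KO3, KO6 and WT5, against 23.7 to 35.5 CPM (median 29.5) in Tbx4-high libraries. En2, of the midbrain and hindbrain border, measured 39.8, 58.9, 25.9 and 31.5 CPM in KO2, KO3, KO6 and WT5, against 18.7 to 30.4 CPM (median 27.99) in Tbx4-high libraries. In both, KO6 and WT5 lay inside or near the Tbx4-high range. CPM values are shares of a library, so a smaller rear and a larger head share cannot be told apart by them.

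**Figure D3:**
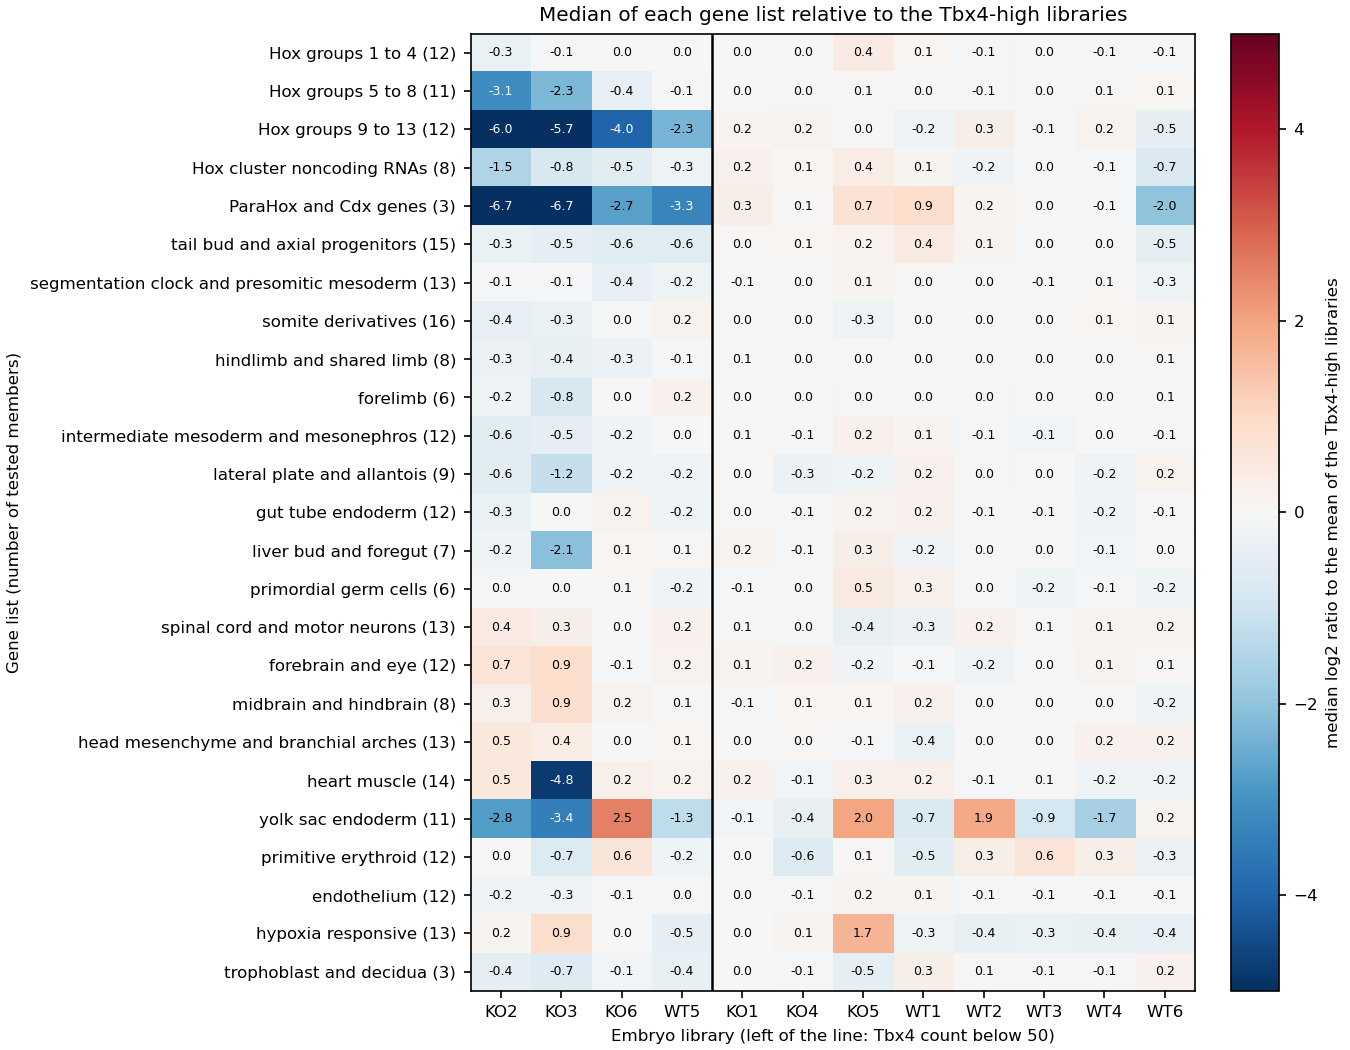
Rows are the 25 gene lists with at least 3 tested members, the sex check left out, and columns are libraries, Tbx4-low on the left; colour is the median over members of the log2 ratio to the mean of the 8 Tbx4-high libraries and saturates at 5. The medians of Hox groups 9 to 13 and of the 3 tested Cdx genes are low in all 4 Tbx4-low libraries, although Cdx1 itself is within the Tbx4-high range in KO6 and WT5. Hox groups 5 to 8 are low in KO2 and KO3 (medians -3.11 and -2.25), and the heart list in KO3 alone (median -4.78).

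KO3 lacked heart transcripts as well. It was the lowest of the 12 libraries in 14 of 14 heart muscle genes, against 1485 of all tested genes (10.03%). Myh6, the atrial myosin heavy chain, measured 153, 0.102, 147 and 125 CPM in KO2, KO3, KO6 and WT5, against 91.6 to 172 CPM (median 97.5) in Tbx4-high libraries. Myl2, the ventricular myosin light chain, measured 92.4, 0, 67.2 and 72.01 CPM in KO2, KO3, KO6 and WT5, against 44.03 to 63.9 CPM (median 53.9) in Tbx4-high libraries. KO2, KO6 and WT5 lay within or above the Tbx4-high range in both genes. Over the list, 13 of 14 heart genes had a lower fitted level (median -0.12, 1 higher) with KO3 the lowest library in each. The summed heart list was 1790, 43.2, 1518 and 1453 CPM in KO2, KO3, KO6 and WT5, against 1114 to 1630 CPM in Tbx4-high libraries. The cardiac transcription factors Nkx2-5 and Gata4 were also lowest in KO3, at 3.81 and 6.50 CPM, where KO2, KO6 and WT5 had 21.02 to 22.005 CPM of Nkx2-5 and 31.4 to 48.04 CPM of Gata4.

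Other tissues that an embryo preparation may hold were measured beside these results, and their part in them was not tested. The summed yolk sac endoderm list (11 tested members, median log2 difference -0.23) was 33.5, 35.5, 543.3 and 77.4 CPM in KO2, KO3, KO6 and WT5, against 53.5 to 408.6 CPM in Tbx4-high libraries. Its defining gene Afp had no count in KO2 and KO3. The liver and gut factor Hnf4a had none in KO2 and KO3 either, and measured 10.3 CPM in KO6 and 2.15 CPM in WT5, against 1.07 to 8.28 CPM in Tbx4-high libraries. Trophoblast and decidua genes summed to 16.2 to 22.01 CPM in Tbx4-low and 21.6 to 33.4 CPM in Tbx4-high libraries, with Tpbpa at 0 in all 12, and macrophage genes summed to at most 2.33 CPM in any library. Hypoxia-responsive genes summed to 9134 CPM in KO3 and 4643 to 6272 CPM in the other Tbx4-low libraries, against 4690 to 11175 CPM in Tbx4-high libraries, the highest being KO5.

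WT6 was Tbx4-high by the rule, but most tail bud genes were lower in it than in the other 7. The summed tail bud list was 322.7 CPM in WT6, against 404.5 to 547.7 CPM in the other Tbx4-high libraries. Its T, Tbx6, Msgn1 and Cdx4 levels are given above. It was the lowest Tbx4-high library in 20 of the 28 lower genes, against 1403 of all tested genes (9.48%). It was also lowest of these in 12 of 15 tail bud genes and in 6 of 12 tested genes of Hox groups 9 to 13. Its Tbx4 and Pitx1 levels were 11.1 and 53.4 CPM, inside the ranges of the other Tbx4-high libraries, and its Hoxc10 level of 14.1 CPM was below theirs. The Tbx4-high libraries were therefore not uniform at the tail bud, and the classes are named here by Tbx4 alone.

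The Tbx4-low libraries included both genotypes, so the difference could be described within each. Among KO libraries, 115 genes (0.777%) were at least 2-fold lower with no overlap in KO2, KO3 and KO6 over KO1, KO4 and KO5, and 23 (0.155%) were at least 2-fold higher. The lower set was 297 without KO6. Of the 115, 42 were on the lists, among them all 12 tested genes of Hox groups 9 to 13, 6 of groups 5 to 8 and 6 tail bud genes, and 73 were on none. WT5 shares no library with that comparison. It was the lowest WT library in 72 of the 115 genes (62.6%), where it was lowest in 17.6% of all tested genes, and the highest WT library in 10 of the 23 (43.5%), where it was highest in 17.4% of all tested genes. Both the choice of WT5 and the choice of the KO libraries were made on Tbx4, and no test is attached.

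Pitx1 differed by -1.61 on the log2 scale (SE 0.138) between Tbx4-low and Tbx4-high KO libraries, and by -2.11 between WT5 and the other WT libraries. For T the values were -2.53 (SE 0.305) in KO and -3.15 in WT. For Evx1 they were -4.71 (SE 0.290) and -3.47. All 3 genes were thus lower in WT5 and in the Tbx4-low KO libraries, whereas Hoxb9 was low in KO2 and KO3 and not in WT5.

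**Figure D4:**
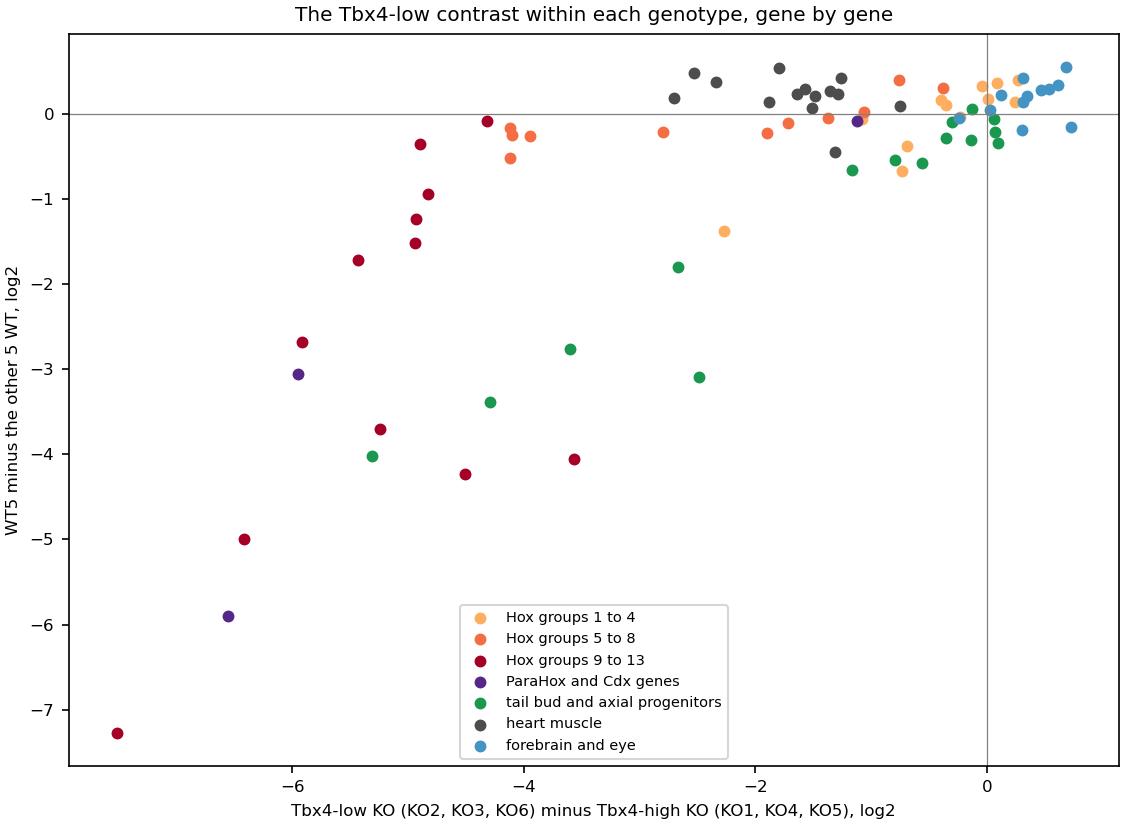
Each point is a tested gene of the 7 coloured gene lists. The x axis is the log2 difference of KO2, KO3 and KO6 from KO1, KO4 and KO5. The y axis is that of WT5 from the other 5 WT libraries. Most genes of Hox groups 9 to 13 and part of the tail bud list (such as T and Evx1) lie at the lower left. Hoxb9, Hoxc6, Hoxa7 and Hoxc8 are low mainly on the x axis. Heart muscle genes are negative on that axis, from -0.75 (Tnni1) to -2.70 (Myh6), through KO3. The heart list medians relative to Tbx4-high libraries were 0.51 in KO2, -4.78 in KO3 and 0.24 in KO6. Wnt3a, Sp5 and Hes3 lie near 0 on both axes.

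Genotype comes from the labels and was not used to choose the libraries. Of the KO libraries 3 of 6 were Tbx4-low, and of the WT libraries 1 of 6 (Fisher's exact test, two-sided, p = 0.545), a comparison too small to show that the genotypes were alike. With the Tbx4 class as a term, 2 of 14804 genes (0.0135%) were past an adjusted p of 0.05 in edgeR's quasi-likelihood test of KO over WT, both lower, and 2719 had an unadjusted p of at most 0.05, of which 1545 were higher. By DESeq2 the same comparison gave 290 genes, 190 of them higher. The 2 genes past the threshold in edgeR were Traf7, with a log2 fold change of -2.82 (SE 0.101, edgeR adjusted p = 3.47e-09), and Klf2, a zinc finger factor of endothelium, with -4.86 (SE 0.335, edgeR adjusted p = 1.04e-05). Klf2 measured 0.0515 to 0.724 CPM in KO libraries, against 7.58 to 12.97 CPM in WT libraries. Both genes were lower in all 6 KO libraries than in any WT library. The count was 4 without KO6. Without the class as a term it was 3 (0.0203%), 5 without KO5, the third gene being Lgals1, a galectin. Its log2 fold change was -0.61 with an edgeR adjusted p of 0.0383 without the class, and -0.60 with 0.144 with it. The call was not stable in either fit: without the class, leaving out 1 library gave edgeR adjusted p values of 0.0146 to 0.154, and with the class it was past the threshold by DESeq2 (adjusted p = 0.000106) and limma voom (adjusted p = 0.0205).

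Within the 8 Tbx4-high libraries (3 KO and 5 WT), 3 of 15107 genes (0.0199%) were past the threshold for KO over WT, namely Traf7, Klf2 and 2310061I04Rik, and 2165 had an unadjusted p of at most 0.05. The 3 were lower, whereas DESeq2 gave 54 genes, 40 of them higher. The count was 9 without KO5 in edgeR. For 2310061I04Rik, the predicted gene with the linked deletion, the log2 fold change was -3.16 (SE 0.332, edgeR adjusted p = 0.00905). That call was lost in limma voom (adjusted p = 0.112) and without KO1, KO4 or KO5 in edgeR (adjusted p = 0.0883, 0.0505 and 0.109). In all 12 libraries with the class as a term its edgeR adjusted p was 0.0844, and 0.000182 without KO6, while DESeq2 and limma voom gave adjusted p values of 2.68e-11 and 0.0208. The 13 genes of Hox groups 9 to 13 tested in the 8 Tbx4-high libraries had edgeR adjusted p values of 0.336 or more for KO over WT. Tbx4 had 8.09, 9.35 and 6.06 CPM in Tbx4-high KO libraries and 11.03 to 15.8 CPM in Tbx4-high WT libraries, without overlap, in libraries chosen by that value, so no test is given. Hoxc10 had a log2 fold change of 0.19 (SE 0.215, edgeR adjusted p = 0.671), and Pitx1 of -0.25 (SE 0.116, edgeR adjusted p = 0.354). The Tbx4-low class held 1 WT library, so genotype was not tested in it.

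The remaining genes past the threshold were mostly without a place on the lists: 13 of the 28 were on one and 15 on none. Cer1, a secreted inhibitor of Nodal, Bmp and Wnt signals that is expressed in the newest somites, had no count in the 3 Tbx4-low KO libraries and 0.116 CPM in WT5, against 0.498 to 2.74 CPM (median 0.988) in Tbx4-high libraries, a ratio of Tbx4-high to Tbx4-low levels of 45.5 (95% interval 12.6 to 376). Ifitm1, a small membrane protein gene of early posterior mesoderm, measured 2.999, 4.72, 10.3 and 5.36 CPM in KO2, KO3, KO6 and WT5, against 16.6 to 44.7 CPM (median 30.02) in Tbx4-high libraries. Mgam, which encodes an intestinal maltase, measured 0, 0.102, 0 and 0.291 CPM in KO2, KO3, KO6 and WT5, against 0.689 to 1.90 CPM (median 0.831) in Tbx4-high libraries. The unnamed gene 2610528A11Rik measured 0.182, 0.203, 2.81 and 0.407 CPM in KO2, KO3, KO6 and WT5, against 4.01 to 24.2 CPM (median 9.19) in Tbx4-high libraries. In these 4 genes all Tbx4-low libraries lay below all Tbx4-high libraries. Ifitm1 was named after its values were seen.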

How the data were processed

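Embryos of both genotypes were sequenced, and 1 table of the whole series was used, which the authors built per gene with GRCm38 annotation. Its deposited values are raw counts per library and FPKM (fragments per kilobase of gene scaled to library size) values, and the aligner and counter were not given in the sources used here. Counts were used for every result. The FPKM values and the columns of the authors' own comparison (group means, fold changes and p-values of KO over WT) were not used. The series title and design text speak of other tissue, and the sample labels of E9.5 embryos were followed.

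Libraries were split by a raw Tbx4 count below 50 or above 100. Members, gene lists (27) and tests were chosen with earlier results of these data known. Genes passing edgeR's filterByExpr by genotype were tested with the robust quasi-likelihood fit (edgeR 4.0.16, limma 3.58.1, R 4.3.3), TMM scaling and Benjamini-Hochberg adjustment, threshold 0.05. The terms were genotype and Tbx4 class in all 12 libraries, genotype alone in all 12 and in the 8 Tbx4-high libraries, and class alone in the 6 KO libraries. The study's DESeq2 test (1.42.0) was an alternative, as were limma voom, other scaling and filters, a replicate block, omitted libraries and 10 counts in 4 libraries as filter. The ratio of WT5 to the other WT libraries used log2 CPM with a prior count of 2, without a test. Figures and exact tests used Python 3.11.15, scipy 1.17.1 and matplotlib 3.10.9.

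Genes named are Tbx4, Hoxc10 and Hoxa11, up to 4 members of each list by size of the log2 difference, up to 12 protein-coding genes per direction past the threshold with at least 2-fold difference, 1 CPM in a class and no overlap within KO, and, for genotype, Traf7, Klf2, Lgals1 and 2310061I04Rik. Other names were added after their values were seen: members of a list that show its order along the axis, heart genes, and the genes in the list of 28. Replicates were separate embryos by their labels. Intervals and floors cover counting error only, and 3 counts served as floor.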

Additional observations from a re-analysis of the deposited data

Results flagged for a closer look

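Among 52 sets of 6 libraries of a genotype, in which a list's median log2 ratio or a marker's CPM was examined, 10 had a library set far from the other 5, where chance gives about 1 in 20. The figure for each is the gap to the nearest library as a share of the group's range, beside a limit of 0.625. KO3 was lowest of the KO libraries in the heart muscle list (0.881, a median of -4.78 beside -0.12 to 0.51 in the others), in the liver bud and foregut list (0.786, -2.10 beside -0.22 to 0.29) and in the forelimb list (0.706, -0.82 beside -0.22 to 0.03). WT5 was lowest of the WT libraries in Hox groups 9 to 13 (0.701, -2.32 beside -0.50 to 0.28) and in Tbx4 CPM (0.687, 0.524 CPM beside 11.03 to 15.8 CPM), the value that chose it.

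KO5 was highest of the KO libraries in the primordial germ cell list (0.787, 0.46 beside -0.06 to 0.05). WT1 was highest of the WT libraries in the endothelium list (0.766, 0.12 beside -0.10 to -0.05), the gut tube endoderm list (0.668, 0.21 beside -0.20 to -0.07) and the primordial germ cell list (0.631, 0.27 beside -0.23 to -0.05). WT1 was lowest of them in the spinal cord and motor neuron list (0.671, -0.30 beside 0.06 to 0.23).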

How the results depend on the processing

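For the Tbx4 classes, the alternatives were followed in Hoxc10, Hoxa11, Hoxc11, Hoxd11, Hoxd13, Cdx4, Evx1, Tbx6, Hoxa13, Cer1, Hoxa10, 2610528A11Rik and Mgam. For KO over WT they were followed in Traf7, 2310061I04Rik, Klf2 and Lgals1. None of these genes changed direction where it was tested, and the other named genes were not followed. The split of calls between directions did change for KO over WT. For Tbx4-low over Tbx4-high libraries, the 29 genes past the threshold became 112 by DESeq2 (16 higher, 96 lower) and 128 (33 higher, 95 lower) by limma voom with quality weights. In edgeR they became 10 with a replicate block, 9 without KO2 and KO3, and 125 without KO6 and WT5. In the KO libraries alone the number was 0 in edgeR, where 458 of 13787 genes had an unadjusted p of at most 0.05. The filter there asked for sufficient counts in all 6 KO libraries. None of the genes followed for the Tbx4 classes passed it, so the 0 says nothing about them. Leaving out 1 library at a time gave 13 to 40. For KO over WT with the class as a term, the 2 genes, both lower, became 290 by DESeq2 (190 higher, 100 lower) and 147 by voom (79 higher, 68 lower), and 2 to 4 with 1 library left out. In the 8 Tbx4-high libraries the 3 genes, all lower, became 54 by DESeq2 (40 higher, 14 lower), 10 by voom (7 higher, 3 lower) and 7 without a count filter (3 higher, 4 lower), and 2 to 9 with 1 library left out. Without the class as a term the 3 genes, all lower, became 376 by DESeq2 (231 higher, 145 lower), and 2 to 5 with 1 library left out. The 115 genes lower within KO became 116 to 297, the WT5 share of 62.6% became 45.8% to 62.1%, and Fisher's exact p was 0.182 to 0.545 with 1 library left out. The omissions for these last 3 results were chosen after seeing the data. The causes of these differences were not tested.

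Same-numbered KO and WT libraries had correlations of their deviations from the group means between -0.316 and 0.285. Of the 6 KO libraries 2, KO1 and KO4, correlated best with their own number. These correlations cannot show whether same-numbered embryos shared a litter, which was not given. For the single genes followed in the Tbx4-low comparison, 184 values kept their side of the threshold, 86 lost it and 3 gained it. Hoxc12, Hoxb13 and Hoxc13 never exceeded 1 CPM, so differences in them were not detectable at this depth.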

Other observations

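Most of the remaining lists had small negative medians, and 48.6% of all tested genes were lower. Of the 12 tested primitive erythroid genes 5 were lower and 7 higher in Tbx4-low libraries (median log2 difference 0.01), and their summed level was 2659 to 6259 CPM in Tbx4-low and 2761 to 6892 CPM in Tbx4-high libraries. Of 12 endothelial genes 11 had a lower fitted level (median -0.16). Kdr, the VEGF receptor that marks endothelium, measured 78.6, 81.3, 93.3 and 78.6 CPM in KO2, KO3, KO6 and WT5, against 80.3 to 142 CPM (median 88.8) in Tbx4-high libraries. Of 12 gut tube endoderm genes 9 were lower (median -0.10), of 7 liver bud and foregut genes 4 (median -0.30), of 6 tested primordial germ cell genes 4 (median -0.13), and of 13 tested hypoxia-responsive genes 12 (median -0.25). The median of the 3 tested trophoblast and decidua genes was -0.40, and the 1 tested macrophage gene, Csf1r, had a log2 difference of -0.16. The summed level of the gut tube list was 369.9 to 453.6 CPM in Tbx4-low and 352.7 to 401.8 CPM in Tbx4-high libraries.

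Y-linked transcripts (Ddx3y, Eif2s3y, Kdm5d and Uty) summed to 107 to 119 CPM in KO2, KO3, WT5, KO4, WT4 and WT6 and to 0 in the other 6 libraries. They were present in 3 of the 4 Tbx4-low and in 3 of the 8 Tbx4-high libraries. KO4 also held 7.57 CPM of Xist, the RNA of the inactive X chromosome, beside 33.004 CPM of Ddx3y.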
